A study of Rattus norvegicus with 4 samples.

Results

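Immediate early genes are transcribed within minutes of a stimulus, without prior protein synthesis, and their messenger RNAs are short-lived. The members described here are Fos, Jun, Junb and Atf3, basic leucine zipper proteins that pair into AP-1 and related dimers, and Egr1, Klf4 and Klf6, zinc finger transcription factors. They also include Ier2, a nuclear protein induced by growth factors, Dusp1, a phosphatase that switches off MAP kinases, and Btg2, an antiproliferative co-regulator, so not every member is itself a transcription factor. In epithelia these genes respond to growth factors, stress and injury, and they can also rise while a tissue is being removed. Klf4 is in addition a steady marker of differentiating epithelial cells.

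The members were taken by gene symbol from the platform annotation of the Affymetrix RAE230A chip, whatever their values. Of the 10 genes listed, 9 were named on the chip, by 14 of its 15866 probe sets, and Btg2 was named by none. The tissue was oxyntic mucosa, the part of the stomach lining that makes acid, scraped from female Sprague-Dawley rats labelled as 8 weeks old, at 21 days. Control animals had received the vehicle of octreotide LAR, and treated animals 5 mg each of octreotide LAR, the depot form of a long-acting somatostatin analogue. One chip held RNA pooled from 8 vehicle animals, and 3 chips each held RNA pooled from 2 octreotide LAR animals, called pools 1, 2 and 3. Per the labels' protocols, which are worded alike for both groups, animals were fasted for a night and anaesthetised with fentanyl, haloperidol and midazolam, and the tissue went straight into liquid nitrogen. The time from death to freezing, which bears on rapid response genes, is not given there.

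The values are linear signal intensities, whose median lay between 223.7 and 233.4 on the 4 chips. Tested probe sets are the 9520 whose mean log2 level reached the 40th percentile, a signal of about 144.7. The markers of the tissue were bright on every chip: Atp4a, a proton pump subunit of parietal cells, had 26692 on the vehicle chip and 23835 to 28932 on the treated chips, and Pgc, a zymogen of chief cells, had 56281 and 48189 to 61846. Of 7 such markers, Hdc alone passed the test, lower in the treated pools. Of the member probe sets, 10 were tested, covering 7 genes, and 4 were too dim, which left Fos and Atf3 untested. The vehicle group is 1 chip without an error of its own, its pool averages more animals than the treated pools do, and the spread comes from the treated chips alone. In whole mucosa, fewer cells of a type and less RNA per cell cannot be told apart.

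Treated and vehicle mucosa were compared to ask whether rapid response genes differed in the mucosa after 21 days of treatment. None of the 10 tested member probe sets passed the test (limma, adjusted p under 0.05 over all tested probe sets), where 10 of 9520, or 0.105%, passed in all. At an unadjusted p under 0.05 it was 1 of 10, that of Klf4, against 4.57% of all tested probe sets. The treated chips all lay above the vehicle chip for 7 of the 14 member probe sets, where 24.4% of all probe sets did, and all below it for 2, where 24.0% did. For the other 5 the vehicle value lay within the treated range. These counts take in 4 genes with several probe sets. By gene, each by its brightest probe set, 4 of 9 were higher in every pool and 0 lower, against 2566 and 2485 of all 10411 genes. The median log2 difference over the 9 genes, each by its brightest probe set, was 0.18, against 0 over all 10411 genes, and ran from -0.65 for Dusp1 to 0.65 for Klf4 among the tested genes, with Atf3, too dim to be tested, at 1.81. By pool the median was 0.03, 0.13 and 0.47 in pools 1, 2 and 3, all 3 measured against the same vehicle chip.

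**Figure D1:**
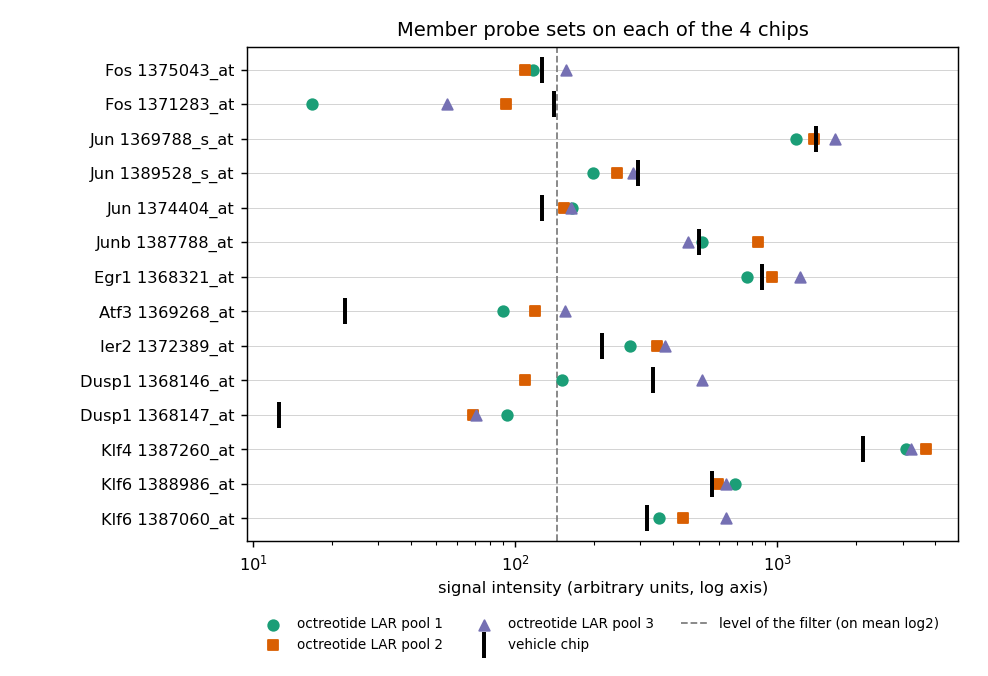
Signal intensity (log axis, arbitrary units) of each of the 14 member probe sets on the vehicle chip (black bar) and on the 3 octreotide LAR pools (coloured symbols), with the level of the filter as a dashed line. Klf4 and Ier2 lie above the vehicle chip in every pool, while the treated pools of the brighter Dusp1 probe set lie from 108.7 to 516.4, on both sides of the vehicle value.

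Fos, an AP-1 subunit that cannot pair with itself, was dim. Its brighter probe set, 1375043_at, read 126.8 on the vehicle chip and 117.1, 109.1 and 156.7 in pools 1, 2 and 3. The vehicle value thus lay inside the treated range. The dimmer probe set, 1371283_at, had 140.7 on the vehicle chip and 16.8, 92.5 and 54.7 in the treated pools, all below it. The pair of probe sets therefore did not give the same picture, and both lay under the level of the filter. With the filter lifted, the differences on the scale of log2(signal + 16) were -0.01 (limma 95% interval -1.06 to 1.05) for the brighter probe set and -1.31 (-3.0 to 0.38) for the dimmer. Both had a limma adjusted p of 1 after rounding.

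Jun, the main partner of Fos, was read by 3 probe sets. The brightest, 1369788_s_at, had 1408.5 on the vehicle chip and 1181.2, 1380 and 1653.5 in pools 1, 2 and 3. The vehicle value lay between pools 2 and 3, and the log2 difference was -0.02 (95% interval -0.47 to 0.43). The probe set 1389528_s_at had 293.7 against 197.2, 243.4 and 280.2, all lower (log2 difference -0.29, interval -0.96 to 0.38). The probe set 1374404_at, annotated with the same source sequence, had 127 against 165, 153.1 and 162.7, all higher (log2 difference 0.30, interval -0.49 to 1.10). These 2 lay on opposite sides of the vehicle chip, and no Jun probe set passed (limma adjusted p of 1 after rounding for each). The vehicle signal of 1374404_at lay under the level of the filter, so this probe set reached the test through the treated chips.

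Junb, the AP-1 subunit that often opposes Jun, had 503.9 on the vehicle chip and 515.2, 844 and 457 in pools 1, 2 and 3. Pool 2 stood above the others, which lay close to the vehicle value. The mean difference was 0.21 on the log2 scale (interval -0.44 to 0.85, limma adjusted p of 1 after rounding), and without pool 2 it was -0.05.

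Atf3, a stress-induced repressor of the same protein class, was dim. Its probe set had 22.4 on the vehicle chip and 89.5, 119.2 and 155.2 in pools 1, 2 and 3, all higher. The probe set was left out of the test by the filter; without it, the difference in log2(signal + 16) was 1.81 (interval 0.58 to 3.04, limma unadjusted p = 0.0098, adjusted p = 0.95). The vehicle signal is so low that the added 16 largely sets the size of that difference, so it has no firm place among those of the other members. Differences of at least 1 on the log2 scale in every pool were found in 194 of the 6346 untested probe sets upward, or 3.06%, and in 117 downward, or 1.84%. Detection calls were not used here, so whether the vehicle signal differs from background was not tested.

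The 5 genes whose differences from vehicle lay nearest to those of Atf3, by Euclidean distance over the 3 treated pools among 7150 tested genes, were Lynx1 (0.22), Ppp1r37 (0.41), Gba2 (0.50), Krt10 (0.72) and B3galt5 (0.75). Lynx1 tunes nicotinic acetylcholine receptors, Gba2 cleaves glucosylceramide, B3galt5 is a galactosyltransferase and Krt10 is a keratin of squamous epithelium. The vehicle signals of Lynx1, Ppp1r37, Gba2 and B3galt5 lay between 43 and 59.1, under the level of the filter, and that of Krt10 was 296.7. All but Krt10 thus reached the tested set through the treated chips. Untested genes, dim like Atf3 itself, were not compared, so some of them may lie nearer. With only 3 pools and 1 vehicle chip, such nearness is a description of these chips.

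Klf4, which drives the differentiation of surface epithelia, came nearest to the threshold. It had 2115.8 on the vehicle chip and 3094.5, 3685.7 and 3230.6 in pools 1, 2 and 3. All treated pools were higher, and they lay within 1.19-fold of each other. The treated mean was 3337 ± 310 (SD, n = 3). The mean log2 difference was 0.65, or 1.57-fold (95% interval 0.28 to 1.02, limma unadjusted p = 0.0022, adjusted p = 0.44). The adjusted p was 0.019 without pool 1 and 0.019 to 0.98 over 10 alternatives, and the difference ran from 0.58 to 0.70. A fit without a pool keeps the same vehicle chip and rests on fewer data, so a pass there is not independent support. Klf4 is also expressed in squamous epithelium, and the markers of that epithelium moved with the treated group. All 13 squamous markers on the chip were higher in the mean, 12 of them in every pool and none at 0. Of all 10411 genes, 49.4% were higher in the mean and 2566 in every pool. Of the 11 squamous markers tested, 6 passed the limma test as higher, against 8 of all 7150 tested genes. Of those 6, 2, Lgals7 and Sprr3, had a vehicle signal under the level of the filter and reached the test through the treated chips. The summed signal of the 13 was 1940 on the vehicle chip and 6232 to 9750 in the treated pools. That sum was highest in pool 1 (9750), followed by pool 2 (7112) and pool 3 (6232), while Klf4 was highest in pool 2 and lowest in pool 1. The part of the squamous markers in the Klf4 difference was not tested.

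Klf6, a related factor induced by injury, was read by 2 probe sets. One, 1388986_at, had 563.5 on the vehicle chip and 686.5, 595 and 636.8 in pools 1, 2 and 3 (log2 difference 0.18, interval -0.30 to 0.65). The other, 1387060_at, had 317.5 against 352.8, 436.7 and 635.9 (log2 difference 0.52, interval -0.13 to 1.17, limma unadjusted p = 0.11). Both were higher in every pool and neither passed, but they differed among the treated pools, with pool 1 highest on the first and lowest on the second.

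Egr1, a zinc finger factor that reports MAP kinase signalling through serum response factor, had 874.2 on the vehicle chip and 764.8, 954.8 and 1219.1 in pools 1, 2 and 3. The vehicle value lay between pools 1 and 2. The treated mean was 979.6 ± 228 (SD, n = 3). The mean log2 difference was 0.14 (interval -0.39 to 0.66, limma adjusted p of 1 after rounding), and without pool 3 it was -0.03. Ier2 had 213.3 on the vehicle chip and 274, 347.9 and 373.5 in the treated pools, all higher. Its log2 difference was 0.59, or 1.51-fold (interval -0.03 to 1.21, limma unadjusted p = 0.062, adjusted p of 1 after rounding).

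By the SD of log2(signal + 16), the brighter probe set of Dusp1 had the widest spread between treated pools of the member probe sets. This probe set, 1368146_at, had 334.3 on the vehicle chip and 150.2, 108.7 and 516.4 in pools 1, 2 and 3. Pool 3 stood above the vehicle chip and pools 1 and 2 well below it, a 4.75-fold range among treated pools (the dimmer Fos probe set, under the level of the filter, had a 5.51-fold range). The mean of the pools' log2 differences was -0.65 (interval -1.90 to 0.59, limma adjusted p of 1 after rounding), and it ran from -1.28 to -0.24 over the alternatives. The SD of its log2 values over the treated pools was 1.11, and an SD above 1 was found in 19 of the 9520 tested probe sets, or 0.200%. The dimmer probe set, 1368147_at, annotated with the same source sequence, had 12.6 on the vehicle chip and 93.4, 69 and 71.1 in the treated pools. It was higher in every pool and did not stand out in pool 3, and it lay under the level of the filter (without which limma unadjusted p = 0.012, adjusted p = 0.95).

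**Figure D2:**
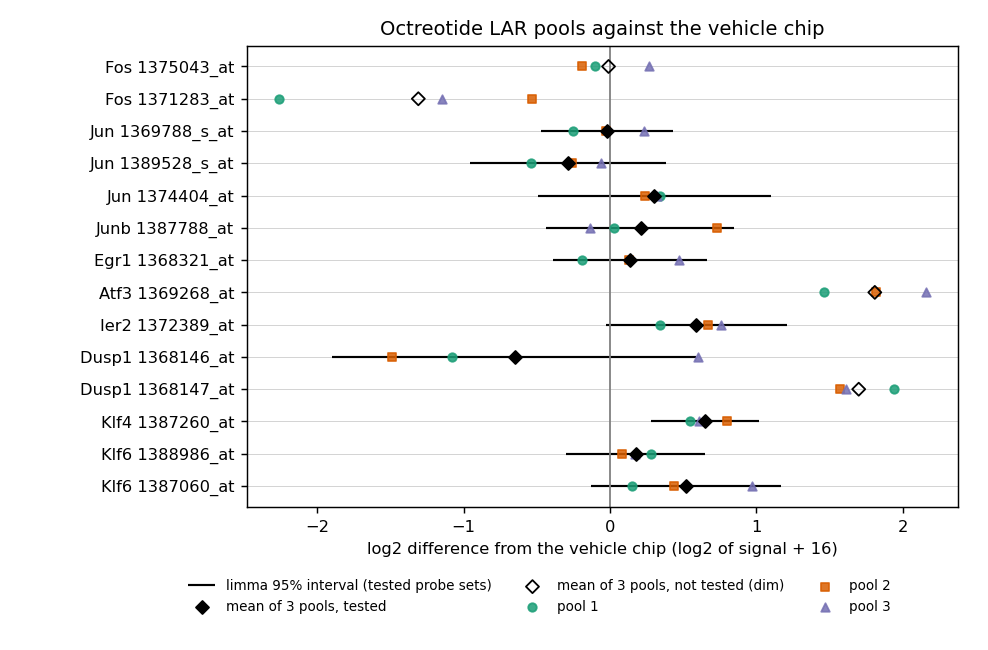
Log2 difference of each treated pool from the vehicle chip (coloured symbols), with the mean of the 3 pools (diamonds; open where the probe set was too dim to be tested) and limma's 95% interval (lines). The interval of Klf4, from 0.28 to 1.02, is the single one among the 10 tested that does not include 0, before adjustment.

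The treated pools also differed among themselves for several members. Over the 9 genes, each by its brightest probe set, pool 3 was the highest of the treated pools for 6: Fos, Jun, Egr1, Atf3, Ier2 and Dusp1. Over all 10411 genes pool 3 was highest for 31.2%. Pool 3 lay above pool 1 for 7 of the 9, with a median log2 difference of 0.43, where 50.3% of all genes did so with a median of 0. Junb and Klf4 were highest in pool 2 and Klf6 in pool 1, and Junb and Klf6 lay lower in pool 3 than in pool 1. The count of 6 was the same with quantile normalization and with centring on the 75th percentile. This pattern was noticed in the data, involves treated chips only and was given no test. The spread at a given level can be seen against that of all probe sets: in bins of 0.5 log2 units, 4 of the 14 member probe sets, those of Dusp1 (1368146_at), Junb, Klf6 (1387060_at) and Egr1, had an SD above the 90th percentile of all probe sets of like signal. Junb had an SD of 0.46, where that percentile was 0.34, and Egr1, at 0.33, lay just past it. Klf4, at 0.13, lay close to the median of its bin, 0.12.

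**Figure D3:**
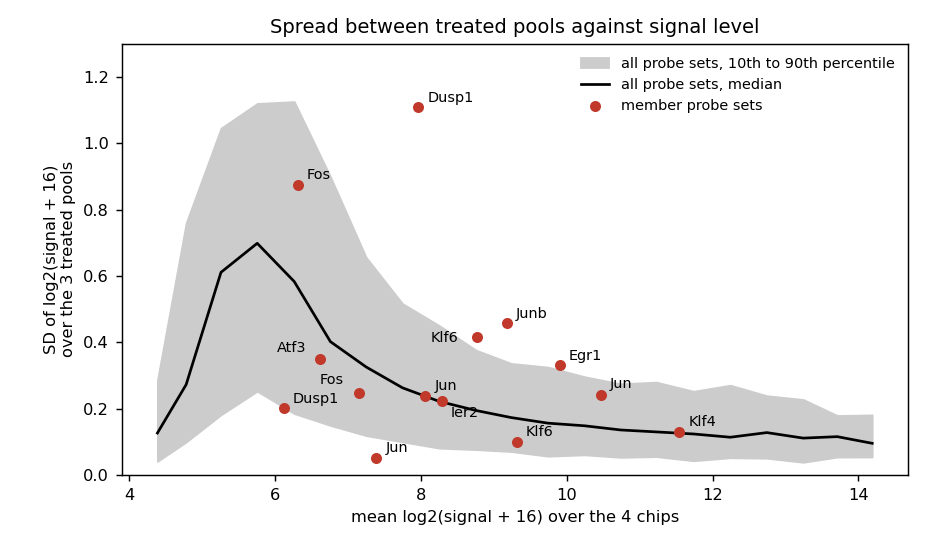
SD of log2(signal + 16) over the 3 treated pools (y axis) against the mean log2 level over the 4 chips (x axis) for the 14 member probe sets (red, named by gene) and for all probe sets (grey band, 10th to 90th percentile; black line, median). The brighter Dusp1 probe set stands at 1.11, while Klf4 lies near the median of all probe sets.

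A list of other rapid response genes was also read by pool. Of the 68 genes in it, 62 were on the chip and 43 were tested. None passed (limma, adjusted p under 0.05), where 8 of all 7150 tested genes passed as higher and 1 as lower. At a limma unadjusted p under 0.05 it was 2 of 43, Id3 and Id1, both higher. Of all 7150 tested genes, 206 were higher and 118 lower at that level. Of the 62, 35 were higher and 27 lower in the mean, where 49.4% of all genes were higher. The median was 0.08, against 0 over all genes. Pool 3 was the highest treated pool for 34 of them, or 54.8%, against 31.2% of all genes. It lay above pool 1 for 46, or 74.2%, against 50.3% of all genes, with a median log2 difference of 0.29. The count of 34 was 35 with quantile normalization and 34 with centring on the 75th percentile. Nfkbia, the inhibitor of NF-kappaB that NF-kappaB itself induces, had 779.8 on the vehicle chip and 729.8, 717.3 and 1705.2 in pools 1, 2 and 3. Zfp36, which degrades AU-rich messenger RNAs, had 589.4 and 584, 727.1 and 1049.1. Klf10, a TGF-beta-induced factor, had 580.1 and 550.5, 813.1 and 1307, and Jund, the least inducible Jun protein, had 155.7 and 131.7, 125.7 and 252.3. In these 4, chosen after their values were seen, pools 1 and 2 lay nearer to the vehicle chip than pool 3 did. Others of the list went another way. Pool 1 was highest for 10 of the 62, pool 2 highest for 18, and pool 3 lowest for 12. Over all 10411 genes these counts were 3545, 3620 and 3290. Fosb, Fosl1, Ier3 and Egr4 were highest in pool 1, and Egr2, Egr3, Nr4a1, Nr4a2 and Nr4a3 in pool 2. Of these, Fosb, Fosl1, Egr4, Egr2 and Nr4a3 were too dim to be tested. Among the 43 tested genes, Id3, Id1 and Csrnp1 had the smallest p. Id3 and Id1 are inhibitors of helix-loop-helix factors and also targets of BMP signalling. Id3 had 535.3 on the vehicle chip and 841.4, 887 and 953.8 in the treated pools, a log2 difference of 0.72 (limma unadjusted p = 0.0037, adjusted p = 0.57). Id1 had 3148.4 and 3882.9, 3949.9 and 4845.9, and Csrnp1, a nuclear protein induced by AXIN1, had 222 and 333.8, 263.4 and 409.5. All 3 were higher in every pool. Of the genes too dim to be tested, the chemokine Ccl2 had 20.1 and 165, 117 and 150.3, and the kinase Pim1 9.9 and 82.9, 95.2 and 130.4. Both were higher in every pool, with a limma unadjusted p of 0.0029 and 0.0038 without the filter, where the adjusted p was 0.84 and 0.86, and were named after their values were seen. The other way, Dusp2, also dim, had 72.3 and 14.2, 11.7 and 29.3 (limma unadjusted p = 0.032 without the filter, adjusted p = 0.98). Dusp2, Fosl2 and Trib1, all too dim to be tested, were lower in every pool. Of the 62 genes, 16 were higher in every pool and 8 lower, against 2566 and 2485 of all 10411 genes.

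**Figure D4:**
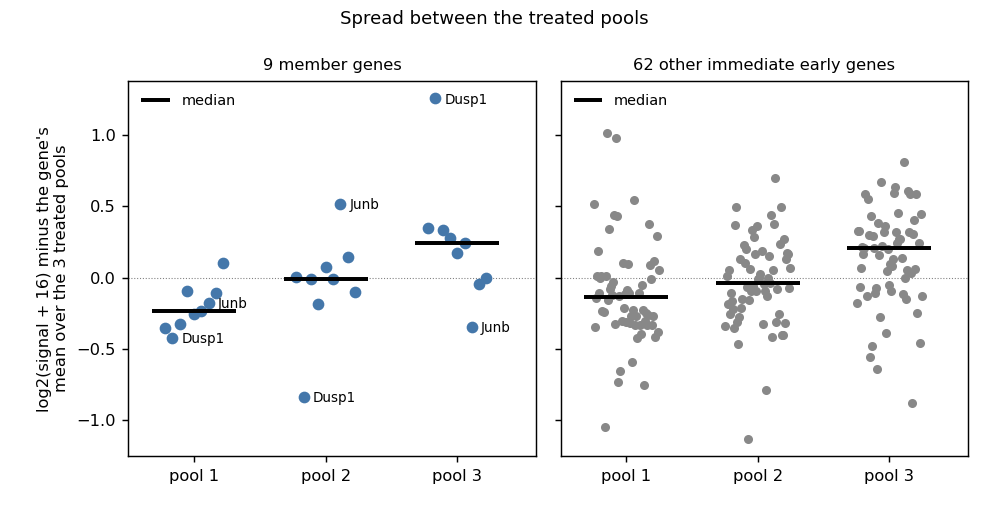
Log2(signal + 16) minus each gene's own mean over the 3 treated pools (y axis), by pool, for the 9 member genes (left; Dusp1 and Junb named) and 62 other immediate early genes (right), with the median of each pool as a black bar. The medians of pool 3 are above those of pool 1 in both panels, with the points of single genes overlapping widely.

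Lists of neighbouring pathways were read in the same way. Over all genes, pool 3 was highest for 31.2% and above pool 1 for 50.3%. The kinases and factors upstream, from Ras to serum response factor and Creb1, had 20 genes on the chip, and pool 3 was highest for 7 and above pool 1 for 10. The heat shock list, with 16 genes on the chip, had pool 3 highest for 3 and a median difference of pool 3 from pool 1 of -0.11. The list of glucocorticoid and fasting responses, with 17 genes, of which 5 are also in the list of other rapid response genes, had pool 3 highest for 10 and above pool 1 for 12. All 5 shared genes, Sgk1 among them, were highest in pool 3, and of the other 12 genes pool 3 was highest for 5 and above pool 1 for 7. In that list, Sgk1, a kinase induced by glucocorticoids, had 1347.2 on the vehicle chip and 1732.4, 1313.6 and 2311.5 in pools 1, 2 and 3. Txnip, a thioredoxin-binding protein that follows glucose, had 11308 and 11806, 12670 and 18288, and Mt2A, a metallothionein, had 903.3 and 1845.4, 930.8 and 1293.5. Txnip was highest in pool 3 like Sgk1, but Mt2A in pool 1.

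Against vehicle, no gene of these 3 lists passed (limma, adjusted p under 0.05, with 17, 15 and 13 genes tested), and their medians were 0.08, -0.03 and 0.16. None had a limma unadjusted p under 0.05, where 206 of all 7150 tested genes did as higher and 118 as lower. The upstream genes with the smallest p were Creb1, which binds the CRE, with 232.6 on the vehicle chip against 348.4 ± 81.5 (SD, n = 3), and the kinases Mapkapk2, with 1536.9 against 1835 ± 270 (SD, n = 3), and Map2k3, with 913.6 against 1080 ± 135 (SD, n = 3). Of the heat shock list they were Hmox1, the inducible heme oxygenase, with 128.3 against 219.4 ± 59.1 (SD, n = 3), and the chaperones Dnaja1, with 1680.5 against 1358 ± 121 (SD, n = 3), and Hspe1, with 3319.8 against 4022 ± 614 (SD, n = 3). The vehicle signal of Hmox1 lay under the level of the filter, so this gene reached the test through the treated chips.

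Markers of some other cells also differed between the treated pools. Of 9 leukocyte markers, 6 were highest in pool 3, as were 31.2% of all genes, but 4 of the 6 were too dim to be tested. The summed signal of the 9 was 3891, 3580 and 4532 in pools 1, 2 and 3 and 3650 on the vehicle chip, most of it from Cd74, the MHC class II invariant chain, with 2412.1, 2253.5 and 2906 in the treated pools. Of 8 smooth muscle markers, 7 were highest in pool 1 and 7 lowest in pool 3, with sums of 66380, 58580 and 50080 against 57540 on the vehicle chip. Of all 10411 genes, 3545 were highest in pool 1 and 3290 lowest in pool 3. Of 6 fibroblast markers, 2 were highest in each pool, with sums of 36350, 33960 and 34330 against 34950. Of 3 endothelial and 2 red blood cell markers, 0 were highest in pool 3. No signal in these lists is 0. Each chip was also run on its own fluidics module, per the experiment headers, so module and pool cannot be told apart. The part of these cells in the differences between the pools was not tested.

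The promoters shown are those of the 4 members named on the chip in which a CArG box or a CRE was found. Through these elements rapid transcription is classically induced. Btg2, which also has the CRE, was named by no probe set and is not shown. The choice was made with the signals known, so it says nothing of the differences between pools. Serum response factor binds the CArG box and CREB binds the CRE (TGACGTCA). RefSeq promoters (GRCr8) were found for 7 of the 10 members, and those of Fos, Jun and Atf3 were not among them. Each line gives the 250 bases before the annotated start, 5′ to 3′ on the gene's strand, with CArG boxes (Egr1 and Klf6) or the CRE (Ier2 and Dusp1) in capitals.
Egr1 (chr18:26736828-26737077, + strand): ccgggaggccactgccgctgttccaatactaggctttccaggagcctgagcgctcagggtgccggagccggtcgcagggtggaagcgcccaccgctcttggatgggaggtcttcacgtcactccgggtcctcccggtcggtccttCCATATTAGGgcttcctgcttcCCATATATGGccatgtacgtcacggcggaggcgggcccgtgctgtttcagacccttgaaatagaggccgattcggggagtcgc
Klf6 (chr17:69458479-69458728, - strand): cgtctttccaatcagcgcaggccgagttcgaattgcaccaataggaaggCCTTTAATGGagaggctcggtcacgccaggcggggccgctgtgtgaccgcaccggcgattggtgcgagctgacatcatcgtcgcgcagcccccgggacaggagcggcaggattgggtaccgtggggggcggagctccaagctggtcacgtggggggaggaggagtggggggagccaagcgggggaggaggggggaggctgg
Ier2 (chr19:40399123-40399372, + strand): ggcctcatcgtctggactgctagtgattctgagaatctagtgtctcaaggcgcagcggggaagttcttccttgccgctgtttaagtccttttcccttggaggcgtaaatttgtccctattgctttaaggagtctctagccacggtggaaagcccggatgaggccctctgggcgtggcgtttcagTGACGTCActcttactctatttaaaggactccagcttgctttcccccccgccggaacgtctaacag
Dusp1 (chr10:17184603-17184852, + strand): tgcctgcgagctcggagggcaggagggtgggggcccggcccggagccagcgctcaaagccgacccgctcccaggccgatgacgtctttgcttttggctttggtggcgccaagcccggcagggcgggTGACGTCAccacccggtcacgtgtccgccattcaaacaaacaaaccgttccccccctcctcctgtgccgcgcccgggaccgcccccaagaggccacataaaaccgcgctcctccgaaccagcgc

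In these windows Egr1 has 2 CArG boxes, CCATATTAGG and CCATATATGG, and Klf6 has 1, CCTTTAATGG. On both strands, a CArG box was found in 2 of the 7 member promoters and in 1.5% of all 33469 promoters of that length. The CRE was found in 3 of 7 (Ier2, Dusp1 and Btg2) and in 1.59% of all, and its first letters TGACG, which lie within the CRE, in 5 of 7 and 18.2%. The AP-1 element TGACTCA and the EGR element GCGTGGGCG were found in 0 of 7, and in 4.05% and 0.478% of all promoters. The letters TATAAA of the TATA box were found in 2 of 7 (Junb and Klf4) and 12.9%. In Junb they lie on the gene's strand at -49 to -44. In Klf4 they lie on the other strand only, at -146 to -141 and -78 to -73, and are not read as a TATA box. The member windows were 43.2% to 72.0% G and C, where the median of all was 51.2%. Such matches describe the letters of these windows and were not tested against the signals.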

How the data were processed

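Probe set signals on Affymetrix RAE230A chips, 1 per pool, were analysed as deposited: linear intensities, made by an algorithm not given in the sources used here. The deposited intensities have 2%-trimmed means between 496.8 and 497.2 on all 4 chips. Per the file headers, chips shared a lot, wash protocol and hybridisation date. Groups follow the sample titles; the vehicle sample's source name mentions octreotide LAR instead. Replicates are chips of different animals, per the labels.

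Values were taken as log2(signal + 16), which understates folds where signals are low. Probe sets under the 40th percentile of mean log2 level were not tested. The other 9520 were fitted with limma 3.58.1 in R 4.3.3 (eBayes with trend, two-sided, Benjamini-Hochberg, threshold 0.05), with 2 residual and 11.5 prior degrees of freedom, 3 treated chips against 1. The lone vehicle chip is assumed to vary like the treated chips. The number of chips limits the precision. Symbols came from the platform annotation, updated by Entrez ID through RefSeq (12748 of 12783 matched); 312 probe sets named several genes and 2771 none. A gene in a list is represented by its brightest probe set. Members, lists and rules were chosen with earlier results of these data known: all members are named, with the 3 genes of smallest p in each list of rapid response, upstream, heat shock and glucocorticoid genes, and the 5 nearest to the member with the largest root mean square difference. Nfkbia, Zfp36, Klf10, Jund, Ccl2, Pim1, Dusp2, Fosl2 and Trib1 were added after their values were seen. So were Fosb, Fosl1, Ier3, Egr4, Egr2, Egr3, Nr4a1, Nr4a2 and Nr4a3. Alternatives changed the pseudocount, filter, scaling, trend, set of pools and, for medians of lists, the use of the mean of all probe sets of a gene.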

Additional observations from a re-analysis of the deposited data

How the results depend on the processing

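No member probe set passed under any alternative except Klf4 without pool 1, so leaving out a pool gave 0 to 1 members called (limma; with all pools 1 of 10 had an unadjusted p under 0.05). The sign turned for the brightest Jun probe set without pool 1 (-0.14 to 0.10 over the pools left out), for Junb without pool 2 (-0.05 to 0.38) and for Egr1 without pool 3 (-0.03 to 0.30), none of them past the threshold. The member median, 0.18, ran from 0.14 to 0.29 and was 0.35 with the mean of all probe sets of a gene, which brings in the dimmer ones, and that of the other rapid response genes ran from 0.02 to 0.18. The count of calls over all probe sets, 10 (9 higher, 1 lower), was 5 (4 higher) with a filter at the 20th percentile, with quantile normalization and with centring on the 75th percentile. It was 1, a higher one, without the trend (0 lower by limma, 169 lower at an unadjusted p under 0.05) and 0 (0 higher, 0 lower) of 15866 by limma with no filter (776 at an unadjusted p under 0.05). It was 31 to 55 (20 to 37 higher, 11 to 18 lower) without 1 treated pool, where 1 residual degree of freedom remains. The cause was not tested. With the filter off, 3 of 14 member probe sets had an unadjusted p under 0.05 (Klf4, Atf3 and the dimmer Dusp1) and none passed. No paired analysis was possible because the vehicle group is 1 chip, so the groups share only replicate number 1. Detection calls were not used here, so dim probe sets have no measured background.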
